A study of Mus musculus with 6 samples.

Results

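The Ran cycle and the nuclear transport receptors were followed by ribosome profiling in activated and resting mouse CD4+ T cells, helper lymphocytes of the immune system. Ribosome profiling sequences the short pieces of mRNA that ribosomes cover, so counts in coding sequence are read here as ribosomes on that mRNA. Some counts fell in introns, and the source of those was not tested. The 10 genes form a functional group proposed with earlier results of these data known, and they were picked out by identifier. All 10 were present among the 22322 genes of the table. They are Ran (ENSMUSG00000029430), Ranbp1 (ENSMUSG00000005732), Rcc1 (ENSMUSG00000028896), Kpnb1 (ENSMUSG00000001440), Kpna2 (ENSMUSG00000018362), Xpo1 (ENSMUSG00000020290), Cse1l (ENSMUSG00000002718), Tnpo1 (ENSMUSG00000009470), Ipo5 (ENSMUSG00000030662) and Ipo7 (ENSMUSG00000066232). The symbols came with the gene set, since the files carry identifiers alone. In the RefSeq annotation (GRCm38.p6) the genes span the following places. For the Ran cycle they are Ran at chr5:129020156-129024322, Ranbp1 at chr16:18239979-18248694 and Rcc1 at chr4:132331919-132345750. For the importins they are Kpnb1 at chr11:97159710-97187892, Kpna2 at chr11:106988629-106999525, Tnpo1 at chr13:98839019-98926384, Ipo5 at chr14:120896840-120948046 and Ipo7 at chr7:110018315-110056609. For the exportins they are Xpo1 at chr11:23255909-23297597 and Cse1l at chr2:166906041-166946389.

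The activated group held 3 libraries of C57BL/6J CD4+ T cells stimulated with beads that carry CD3 and CD28 antibodies, and the resting group held 3 libraries of such cells without that activation. Both groups came from spleen and lymph nodes of female mice aged 6 weeks, with CD4+ cells isolated by negative selection, and all libraries are labelled untreated at 0 h, the starting point of the study's time courses with transcription and translation inhibitors. The labels number the libraries 2, 3 and 4 in each group and call them biological replicates. They do not say whether cells of several mice were pooled or how long the stimulation lasted, and a p-value here reflects no more than library-to-library spread, which may be technical. The defining markers of CD4+ T cells and of other cell types could not be looked up, because the table gives no gene names. A footprint count rises with the amount of an mRNA and with the ribosomes on each copy, and with a change in the mix of cells, and these cannot be told apart here.

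Ran is a small GTPase that is mostly GTP-bound in the nucleus and GDP-bound in the cytoplasm. Rcc1, bound to chromatin, loads Ran with GTP, while Ranbp1 works in the cytoplasm with the Ran GTPase-activating protein to end the GTP-bound state. Importins pick up cargo in the cytoplasm and release it when they meet Ran-GTP in the nucleus, whereas exportins carry cargo out together with Ran-GTP. Resting lymphocytes are small cells with compact nuclei, and they enlarge and enter the cell cycle once activated.

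The coding sequence (CDS) footprints of 8 of the 10 genes rose in activated cells, and those of none fell (edgeR's quasi-likelihood test, Benjamini-Hochberg adjusted p under 0.05 over all 6775 genes tested). The genes that rose were Ran, Ranbp1 and Rcc1 of the Ran cycle, the importin pair Kpnb1 and Kpna2, and the import receptors Tnpo1, Ipo5 and Ipo7. Over all genes tested, 45.7% passed this threshold in either direction and 24.1% were higher in activated cells. The median log2 change of the 10 genes was 0.91, with a range of -0.25 to 1.85, and that of all genes tested was -0.04. Of the 8 genes, Ran, Rcc1, Ipo5 and Ipo7 had a fitted change of at least 2-fold. Of all 6775 genes tested, 999 passed the threshold with a fitted rise of at least 2-fold. In a test against a 2-fold null (edgeR's glmTreat), Rcc1, Ipo5 and Ipo7 passed and Ran did not (adjusted p = 0.669). That test called 544 of all 6775 genes higher. The exportins, Xpo1 and Cse1l, did not pass the threshold.

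How many genes are called higher or lower, and the size of each change, depend on how libraries are scaled against each other. The values above used trimmed mean of M-values (TMM) factors, under which 1633 genes were higher and 1464 lower. Upper quartile factors gave 1399 higher and 1897 lower genes. Library totals alone gave 1102 higher and 2572 lower genes. With upper quartile factors the median log2 change was 0.78 for the 10 genes and -0.18 for all genes tested. With library totals alone it was 0.58 for the 10 genes and -0.38 for all genes tested.

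**Figure D1:**
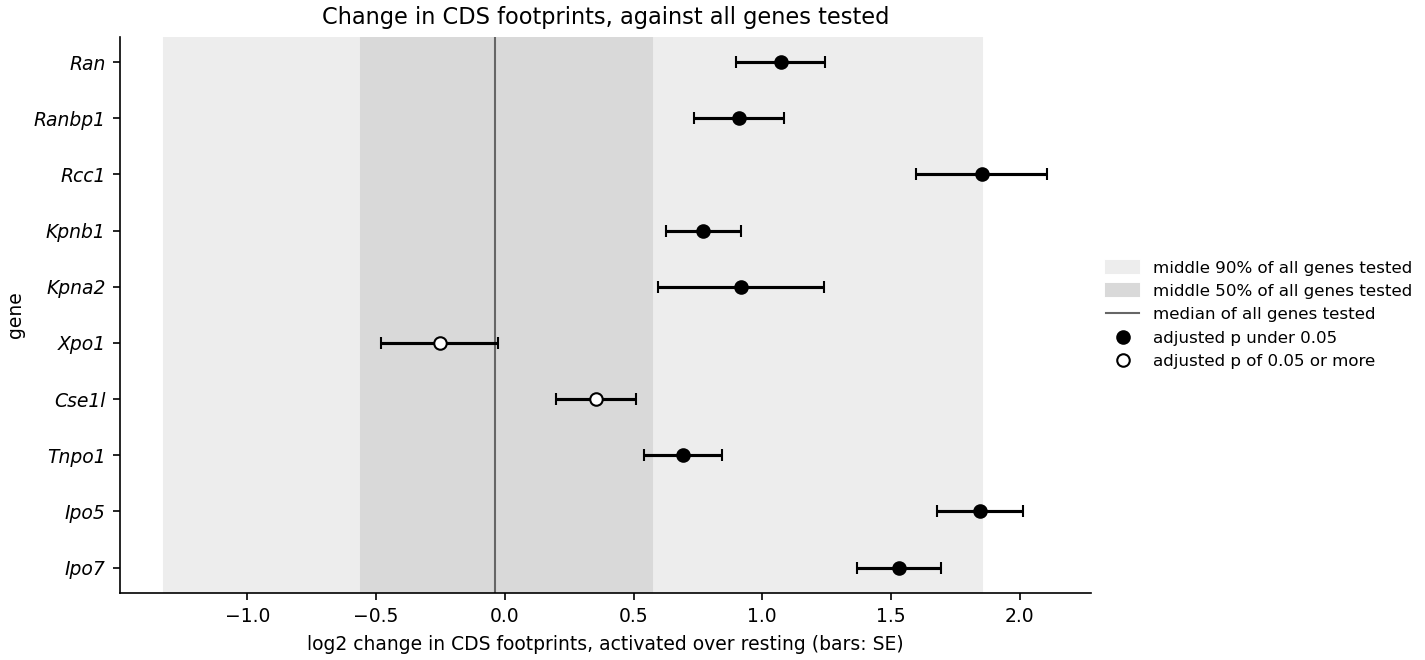
Log2 change in CDS footprints, activated over resting (x axis), for each of the 10 genes (y axis), with bars for the SE. Filled points had an adjusted p under 0.05, and the shaded bands hold the middle 50% and 90% of all 6775 genes tested. The points of Rcc1 and Ipo5 lie near the upper edge of the 90% band at 1.85, and only the point of Xpo1 is below 0.

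The DNA before the start site is shown for 3 of the 10 genes. It was read from RefSeq's promoter windows (GRCm38.p6), for which 9 of the 10 genes matched by symbol. Each run is the 250 bases before the annotated start, 5′ to 3′ on the gene's strand. Capitals mark CACGTG (the E-box, bound by Myc and related factors), CCAAT, and a 10-base palindromic match to the NRF1 motif. Ran and Ipo7 were chosen because they hold an E-box, and Kpnb1 because it has the most CCAAT boxes.
Ran, chr5:129019906-129020155, plus strand: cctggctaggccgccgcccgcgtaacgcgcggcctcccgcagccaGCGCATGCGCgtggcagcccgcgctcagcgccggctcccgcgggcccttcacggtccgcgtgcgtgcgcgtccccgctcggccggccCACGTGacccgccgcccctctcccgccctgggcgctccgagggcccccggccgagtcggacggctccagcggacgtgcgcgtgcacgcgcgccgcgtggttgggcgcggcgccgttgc
Ipo7, chr7:110018065-110018314, plus strand: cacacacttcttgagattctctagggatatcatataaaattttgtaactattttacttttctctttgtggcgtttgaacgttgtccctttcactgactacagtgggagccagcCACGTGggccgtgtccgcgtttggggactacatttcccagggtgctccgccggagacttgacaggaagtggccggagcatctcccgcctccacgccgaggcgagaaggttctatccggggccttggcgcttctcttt
Kpnb1, chr11:97187893-97188142, minus strand: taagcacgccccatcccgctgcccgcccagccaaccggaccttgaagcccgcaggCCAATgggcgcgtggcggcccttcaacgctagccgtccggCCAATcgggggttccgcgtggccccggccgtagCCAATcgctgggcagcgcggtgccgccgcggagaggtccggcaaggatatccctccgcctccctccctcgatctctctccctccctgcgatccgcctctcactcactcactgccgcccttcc

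The first base of the E-box lies 118 bases before the start in Ran and 137 bases before it in Ipo7. Both strands were searched for 5 motifs over the same 250 bases. CACGTG was found for 2 of the 9 genes (Ran and Ipo7), and in 6.02% of all 32851 windows. CCAAT was found for 5 genes (Ranbp1, Kpnb1, Kpna2, Xpo1 and Ipo5) and in 33.8% of all windows. GGGCGG, the GC box, was found for 8 genes, all but Ipo7, and in 32.7% of all windows. CCGGAAG, an ETS motif, was found for none and in 6.91% of all windows, and the NRF1 motif for Ran alone and in 0.782% of all windows. Tnpo1 and Ipo5 have 2 windows each, so the 9 genes contributed 11 windows, while the percentages count windows. Of these 11 windows, CACGTG was in 2, CCAAT in 5, the GC box in 8, the ETS motif in 0 and the NRF1 motif in 1. In the runs printed here no match overlapped a match of another motif. A match describes the sequence and not a factor bound there. Whether the motifs relate to the changes in footprints was not tested.

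Ran itself, the GTPase that drives the cycle, was 2.10-fold higher in activated cells. It had 777, 841 and 956 CPM (counts scaled to library size with TMM factors) in activated replicates 2, 3 and 4, against 318, 391 and 513 CPM in resting replicates 2, 3 and 4. The lowest activated library lay above the highest resting one. The log2 change was 1.07 (SE 0.17, edgeR adjusted p = 9.87e-05). RefSeq lists Rasl2-9 on chromosome 7, a gene that also carries Ran among its synonyms. Records that aligned to more than 1 place were not counted to a gene, so the level of Ran is uncertain where the genes share sequence.

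Ranbp1, the cytoplasmic Ran-GTP binder, had 189, 191 and 237 CPM in activated replicates 2, 3 and 4, and 107, 123 and 99.9 CPM in resting replicates 2, 3 and 4. The groups did not overlap. The log2 change was 0.91 (SE 0.17, edgeR adjusted p = 0.000502). Ranbp1 lies on chromosome 16 head to head with Trmt2a, a tRNA methyltransferase gene on the opposite strand, with 152 bases between them in the RefSeq annotation.

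Rcc1, the exchange factor that loads Ran with GTP, changed by more than the other Ran cycle genes. It had 116, 91.8 and 94.7 CPM in activated replicates 2, 3 and 4, and 23.1, 21.1 and 36.9 CPM in resting replicates 2, 3 and 4. Every activated library was well above every resting library, a 3.61-fold rise (log2 change 1.85, SE 0.25, edgeR adjusted p = 2.00e-05). Its counts were low, with 51, 73 and 89 in activated replicates 2, 3 and 4 and 11, 13 and 24 in resting replicates 2, 3 and 4.

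**Figure D2:**
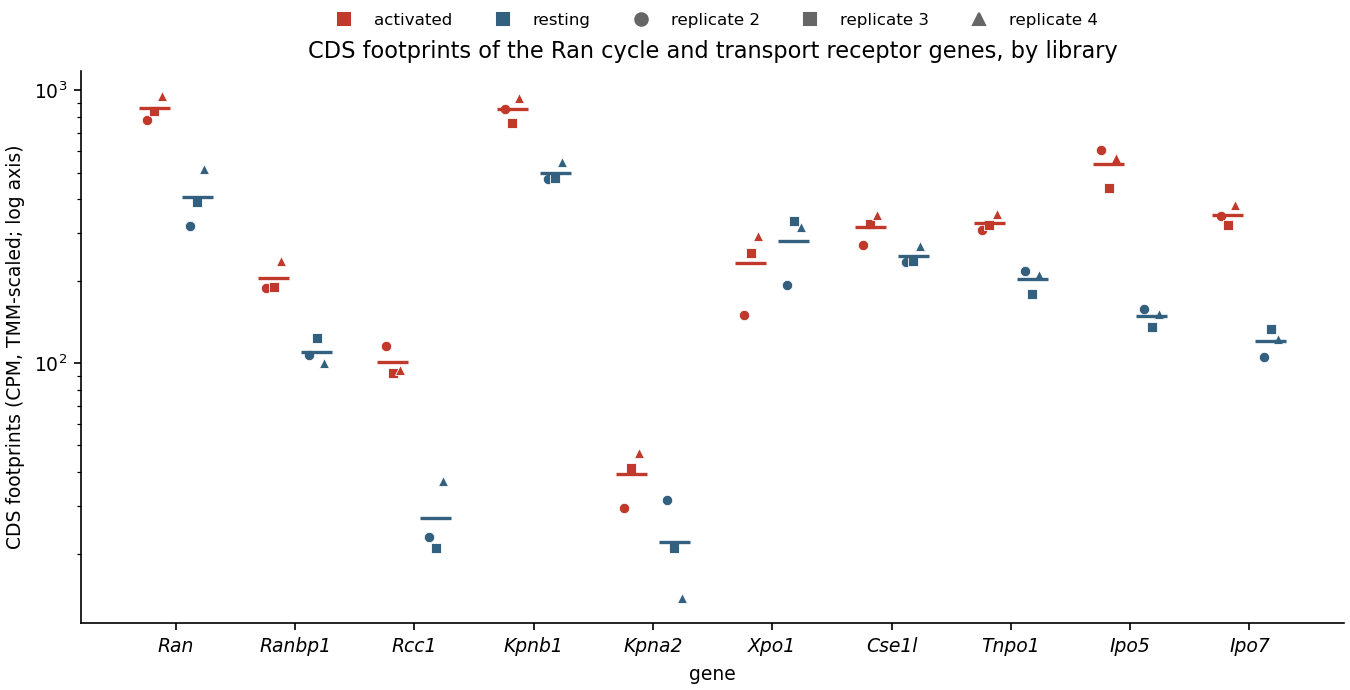
CDS footprints in CPM with TMM scaling (y axis, log scale) for each of the 10 genes (x axis), with a point per library, activated left of resting, and a line at the mean of 3 libraries. The groups do not overlap except for Kpna2 and Xpo1. Heights are not comparable between genes, since the values are not divided by length.

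Kpnb1, the importin beta receptor that carries the classical import pathway, was 1.71-fold higher in activated cells. It averaged 852 ± 89.9 CPM in activated and 499 ± 39.3 CPM in resting cells (SD, n = 3 libraries each). Single libraries had 857, 759 and 939 CPM in activated replicates 2, 3 and 4, above the 475, 477 and 544 CPM of resting replicates 2, 3 and 4. The log2 change was 0.77 (SE 0.14, edgeR adjusted p = 0.000416).

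Kpna2, the importin alpha adapter that binds the nuclear localisation signal and hands it to Kpnb1, had the fewest counts of the 10 genes. It had 13, 33 and 44 counts in activated replicates 2, 3 and 4 (29.5, 41.5 and 46.8 CPM), and 15, 13 and 9 counts in resting replicates 2, 3 and 4 (31.5, 21.1 and 13.8 CPM). Activated replicate 2 lay below resting replicate 2, so the groups overlapped. The log2 change was 0.92 (SE 0.32, edgeR adjusted p = 0.0285), but 8 of 18 alternatives ended the call, with an adjusted p of up to 0.239 when libraries were thinned to 1 depth. Leaving out resting replicate 4 gave a log2 change of 0.65 (edgeR adjusted p = 0.157). A Kpna2 pseudogene is annotated on chromosome 17, and records shared with it would have been left out of the count.

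Tnpo1, Ipo5 and Ipo7 rose, each with all activated libraries above all resting ones. Tnpo1, which imports hnRNP proteins, had 309, 321 and 351 CPM in activated replicates 2, 3 and 4, and 219, 180 and 211 CPM in resting replicates 2, 3 and 4. The log2 change was 0.69 ± 0.15 (SE, edgeR adjusted p = 0.0015). Library totals alone ended the call (log2 change 0.35, edgeR adjusted p = 0.0613).

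Ipo5, an importin whose known cargoes include ribosomal proteins and histones, had 604, 437 and 564 CPM in activated replicates 2, 3 and 4. In resting replicates 2, 3 and 4 it had 158, 136 and 152 CPM. The 3.59-fold difference was large beside the spread in either group (log2 change 1.84, SE 0.17, edgeR adjusted p = 2.60e-07).

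Ipo7, a related importin for ribosomal proteins and histone H1, followed with 348, 321 and 381 CPM in activated replicates 2, 3 and 4. Resting replicates 2, 3 and 4 had 105, 133 and 123 CPM, all below the activated libraries. The change was 2.89-fold (log2 change 1.53, SE 0.16, edgeR adjusted p = 1.32e-06). By adjusted p, Ipo5 and Ipo7 were the clearest changes among the 10 genes.

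Neither exportin passed the threshold, and a difference between exportins and importins as groups was not tested. Xpo1, which exports proteins with a leucine-rich export signal, had 150, 254 and 293 CPM in activated replicates 2, 3 and 4, and 193, 331 and 317 CPM in resting replicates 2, 3 and 4. The groups overlapped, and replicate 2 was the lowest library in both. Its change of -0.25 on the log2 scale had an SE of 0.23 (edgeR adjusted p = 0.382). With library totals alone it was -0.59 (edgeR adjusted p = 0.0384), and without activated replicate 2 it was -0.02 (edgeR adjusted p = 0.933).

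Cse1l, the exportin that returns importin alpha to the cytoplasm, had 270, 323 and 350 CPM in activated replicates 2, 3 and 4. The resting libraries had 235, 237 and 269 CPM in replicates 2, 3 and 4. Activated replicate 2 lay just above resting replicate 4, so the groups did not overlap, but the log2 change of 0.35 had an SE of 0.15 and an adjusted p of 0.0719 (edgeR). With library totals alone the change was 0.02 (edgeR adjusted p = 0.932), and without activated replicate 2 it was 0.47 (edgeR adjusted p = 0.0169). Of the 10 genes, 8 had all activated libraries above all resting ones, Cse1l among them and Kpna2 not, against 28.1% of all genes tested. These counts rest on TMM factors, which were 0.880 to 0.894 in activated and 1.12 to 1.13 in resting libraries. Overlap was not counted under other scalings.

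**Figure D3:**
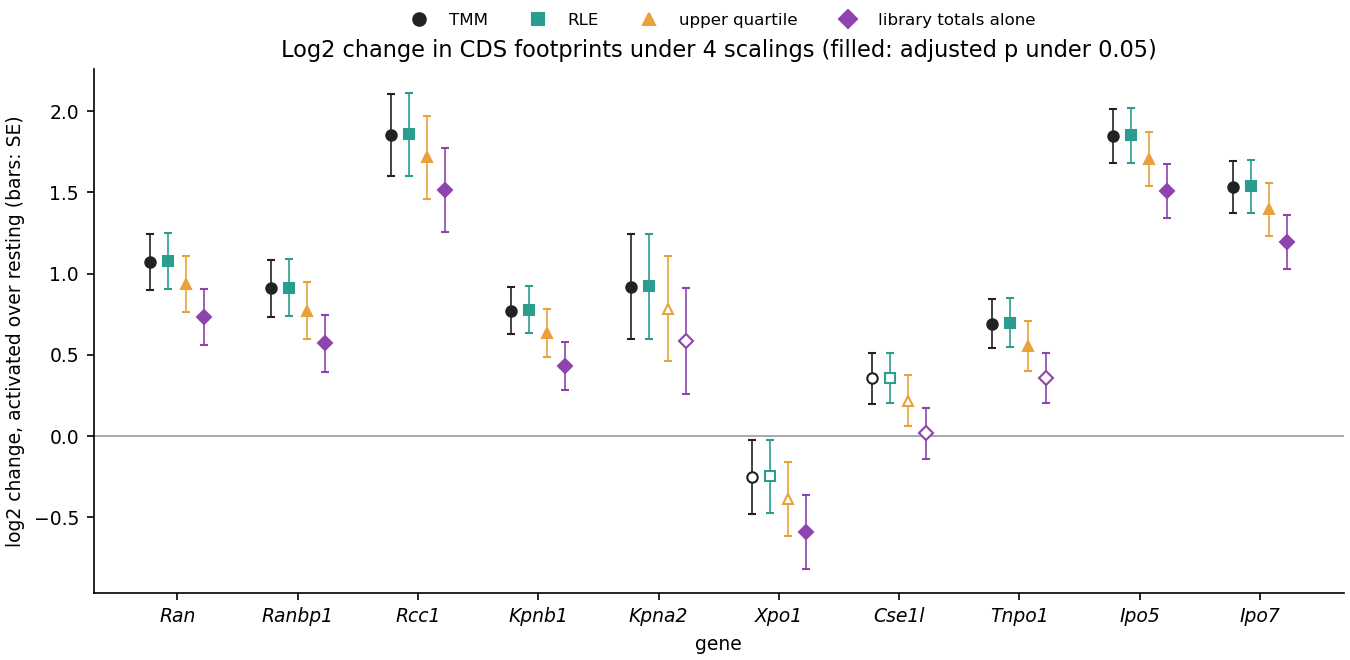
Log2 change in CDS footprints, activated over resting (y axis), for each of the 10 genes (x axis) under 4 scalings between libraries, with bars for the SE and filled points where the adjusted p was under 0.05. TMM and RLE points lie together, and the points for library totals alone are lowest for each gene. Xpo1 is below 0 and the other 9 genes are above 0 under all 4 scalings.

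Footprints on the 10 genes together made up 0.314%, 0.313% and 0.368% of all CDS counts in activated replicates 2, 3 and 4, from 1606, 2848 and 3958 counts. In resting replicates 2, 3 and 4 they made up 0.203%, 0.223% and 0.249%, from 887, 1264 and 1483 counts. The 95% Wilson intervals, which cover counting error only, ran from 0.299% to 0.380% across the activated libraries and from 0.190% to 0.262% across the resting libraries. The sum is a description of chosen genes and was not tested.

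Within that sum, the shares of some genes did not overlap between the groups, and these shares were not tested. Xpo1 held 6.05 ± 1.68% of the 10 genes' counts in activated and 13.5 ± 2.91% in resting cells (SD, n = 3 libraries each). Ipo5 held 14.1 ± 2.25% in activated and 7.26 ± 1.04% in resting cells, and Ipo7 9.18 ± 0.308% in activated and 5.84 ± 0.574% in resting cells. Cse1l held 8.25 ± 0.809% in activated and 12.0 ± 0.563% in resting cells, and Rcc1 2.66 ± 0.471% in activated and 1.30 ± 0.299% in resting cells. The shares of Ran, Ranbp1, Kpnb1, Kpna2 and Tnpo1 overlapped between the groups. These shares add up to the whole, so a larger share of 1 gene lowers the others.

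Ratios of 2 genes within a library do not depend on the scaling between libraries, and exact permutation tests (two-sided) were run on 5 such ratios, whose pairs were also chosen with earlier results known. With 3 libraries a group, the smallest p these tests can give is 0.1. Xpo1 had 17.5, 33.4 and 31.2 CDS counts per 100 counts of Kpnb1 in activated replicates 2, 3 and 4, and 40.7, 69.4 and 58.2 in resting replicates 2, 3 and 4. This ratio of footprint counts was lower in every activated library than in any resting one, with a log2 difference of -1.06 (exact p = 0.1, adjusted over the 5 ratios 0.25).

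Rcc1 had 14.9, 10.9 and 9.91 counts per 100 counts of Ran in activated replicates 2, 3 and 4, and 7.28, 5.39 and 7.19 in resting replicates 2, 3 and 4. Footprint counts of Rcc1 relative to those of Ran were thus higher in every activated library than in any resting one. The log2 difference was 0.84 (exact p = 0.1, adjusted 0.25). For Ranbp1 over Ran the log2 difference was -0.20 (exact p = 0.4, adjusted 0.5). Cse1l over Kpna2, the exportin over its cargo, differed by -0.54 (exact p = 0.4, adjusted 0.5), with -0.87 without resting replicate 2 and -0.18 without resting replicate 4. Kpna2 over Kpnb1 differed by 0.11 (exact p = 0.8, adjusted 0.8). The groups overlapped in these 3 ratios.

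**Figure D4:**
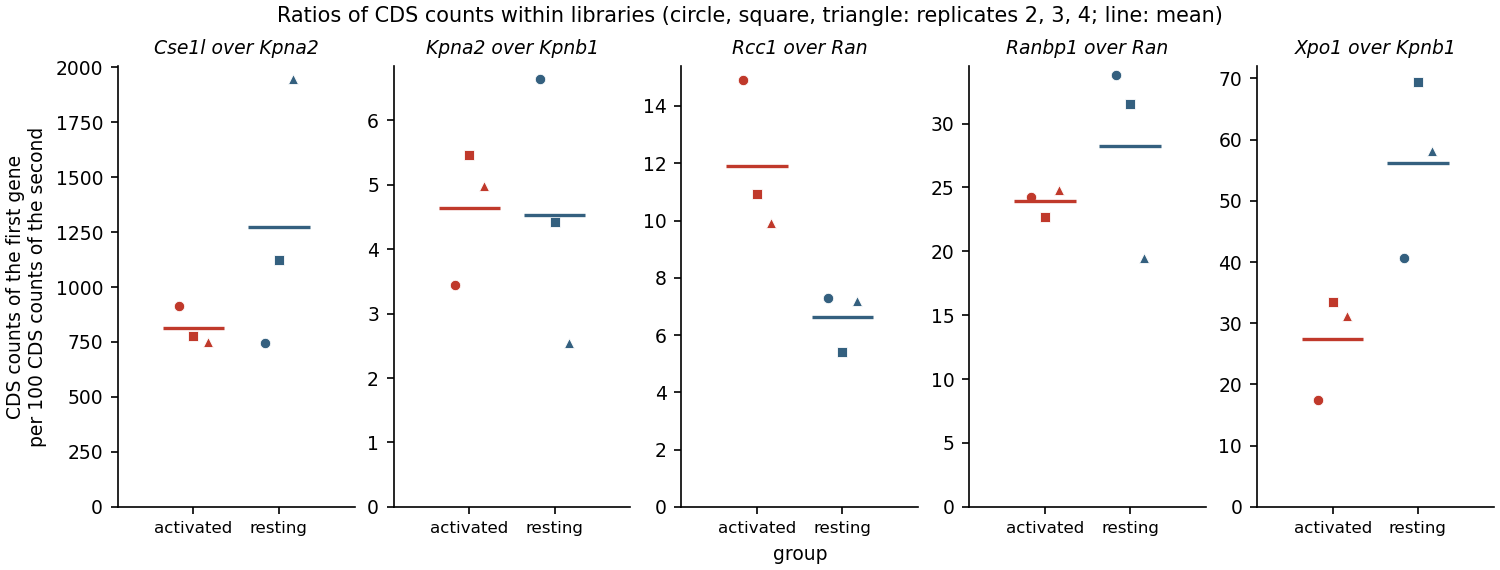
CDS counts of the first gene per 100 CDS counts of the second (y axes, each from 0) in each library, for 5 pairs of genes, with activated left of resting and a line at the mean of 3 libraries. Only Rcc1 over Ran (higher in activated) and Xpo1 over Kpnb1 (lower in activated) show no overlap between the groups.

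Counts in the 5′ UTR, the stretch of mRNA before the start codon, differed widely among the genes, and they are not divided by its length. Ipo7 had 0 counts there in all 6 libraries, and 0 in the 3′ UTR as well. Whether UTRs were annotated for Ipo7 was not tested. Ipo5 had 6 counts in the 5′ UTR in total and Rcc1 8, and these 3 genes were not tested. Kpnb1 had 520 in total, Xpo1 363 and Ranbp1 207. The other 4 genes had between 35 and 56. The tested genes needed at least 5 counts in 3 libraries, and Ran, Kpna2 and Tnpo1 reached this through the activated libraries alone.

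Relative to the CDS of the same gene, 5′ UTR counts changed for 0 of the 7 genes tested (edgeR adjusted p under 0.05), against 0.518% of the 3670 genes tested in all. At an unadjusted edgeR p under 0.05 there were 2 of the 7, Ran and Tnpo1, against 407 of all 3670 genes tested (11.1%). Both had passed the count minimum through the activated libraries alone, so no direction is read from them and their values are given as a description. Ran had 16, 18 and 16 counts in the 5′ UTR in activated replicates 2, 3 and 4, and 2 in each resting library. Per 100 CDS counts these were 4.68, 2.69 and 1.78 in activated replicates 2, 3 and 4, and 1.32, 0.830 and 0.599 in resting replicates 2, 3 and 4. Over all genes, activated replicate 2 had 102410 counts in the 5′ UTR beside 511483 in the CDS. Activated replicate 4 had 153868 beside 1074656. Relative to the CDS, activated replicate 2 thus had more 5′ UTR counts than any other library. The values per 100 CDS counts given here are not adjusted for this.

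For Tnpo1 the same measure was 5.15, 6.67 and 3.03 in activated replicates 2, 3 and 4, and 0.962, 2.70 and 0 in resting replicates 2, 3 and 4. They rest on 7, 17 and 10 counts in the activated libraries and on 1, 3 and 0 counts in the resting libraries. Ranbp1 had 59.0, 44.1 and 24.2 in activated replicates 2, 3 and 4, and 5.88, 17.1 and 32.3 in resting replicates 2, 3 and 4. The groups overlapped, and within each group the spread was large (log2 change 0.75, SE 0.40, edgeR adjusted p = 0.500). Without resting replicate 2 the change of Ranbp1 was 0.39, and without resting replicate 4 it was 1.40, with edgeR adjusted p-values of 0.827 and 0.380. Xpo1 had 35.9 ± 10.5 in activated and 39.1 ± 5.80 in resting cells (SD, n = 3 libraries each). Its fitted change was -0.49 on the log2 scale (SE 0.28, edgeR adjusted p = 0.542). The fit scaled 5′ UTR and CDS counts separately, so this is not the change in the printed ratio. With 1 scaling for both regions it was -0.20 (edgeR adjusted p = 0.799). The Xpo1 groups overlapped. Kpnb1 had 20.2 ± 4.52 in activated and 19.8 ± 7.46 in resting cells (SD, n = 3 libraries each), and its edgeR adjusted p was 0.779.

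**Figure D5:**
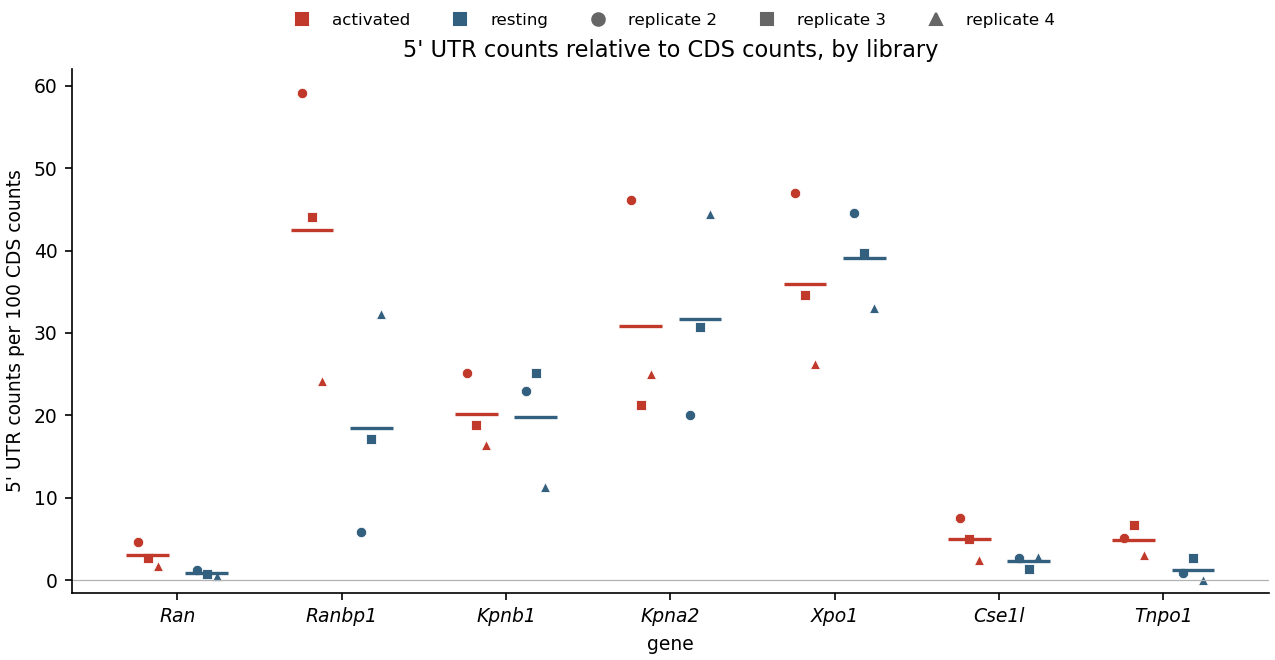
5′ UTR counts per 100 CDS counts (y axis) for the 7 genes tested (x axis), with a point per library, activated left of resting, and a line at the mean of 3 libraries. Ranbp1, Kpnb1, Kpna2 and Xpo1 lie between 5.88 and 59.0, while Ran, Cse1l and Tnpo1 lie between 0 and 7.56. The values are not adjusted for the higher 5′ UTR counts, relative to the CDS, of all genes together in activated replicate 2.

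Ipo7 held most of the intronic counts of these 10 genes, 2278 in total. Ipo7 (chr7:110018315-110056609 in GRCm38.p6) had 220, 386 and 398 intronic counts in activated replicates 2, 3 and 4, and 567, 283 and 424 in resting replicates 2, 3 and 4. Ranbp1 had 67 over all libraries, and none of the other 8 genes had more than 3. The RefSeq annotation places 2 small nucleolar RNA genes, Gm25636 and Snora23, within the span of Ipo7 and 1, Gm25777, within that of Ranbp1. It places none within the spans of the other 8 genes. Small nucleolar RNAs are stable non-coding RNAs often made from introns, and their part in these counts was not tested.

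Per 100 CDS counts, Ipo7 had 144, 151 and 111 intronic counts in activated replicates 2, 3 and 4. In resting replicates 2, 3 and 4 it had 1134, 345 and 530. The groups did not overlap, with a log2 difference of -2.14 (exact permutation p = 0.1, a comparison chosen after the values were seen). The CDS count in the denominator is higher in activated cells, and the intronic counts alone overlapped between the groups. The exon counts of Ipo7 equalled its CDS counts in every library, so the exonic measure of this gene held no UTR counts.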

How the data were processed

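The authors deposited 1 table of raw counts per gene, with 36 count columns, 6 per library, for CDS in 2 counting modes, 5′ UTR, 3′ UTR, exons and introns, per the file headers. Per the submitters' processing notes, the tools were TopHat2 2.0.13, Bowtie 1.1.1.0 and HTSeq, and the build was mm10. The sources used here do not give the annotation release, read trimming or strand setting, so counts of overlapping genes on opposite strands are uncertain. Summary rows without a gene were left out of library sizes and tests. Records that were not uniquely aligned made up 65.8% to 79.6% of a library, those in no CDS 11.8% to 14.5% and ambiguous ones at most 0.0985%. CDS counts summed to 511483 to 1074656 in activated and 437200 to 594508 in resting libraries.

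The 10 genes, the ratios and the list of other pathway genes were chosen with earlier results of these data known. That list (52 genes) and the cell type markers could not be used, since 0 identifiers of the table matched the table of gene names (RefSeq, GRCm38.p6). All 10 members were named by rule, and locations were found through their symbols. CDS counts were tested across all genes with edgeR 4.0.16 in R 4.3.3 (filterByExpr, TMM, estimateDisp, glmQLFit with legacy set to false, glmQLFTest, two-sided), with Benjamini-Hochberg adjustment and a threshold of 0.05. SE is the size of the log2 change over the square root of F. Counts of the 5′ UTR relative to the CDS were tested in 1 edgeR model with a term per library, for the region and for the region in activated cells, at a minimum of 5 counts in 3 libraries. Each region had its own TMM factors. The main CDS fit and the main 5′ UTR fit were run on simulated counts with known changes, and the alternatives were not. As many genes were raised as lowered there, so the scaling between libraries was not checked. DESeq2 1.42.0, limma voom 3.58.1 and other scalings, filters and count columns were alternatives.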

Additional observations from a re-analysis of the deposited data

How the results depend on the processing

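The 10 genes and 6 libraries limit what can be said: counts are low for Kpna2 and resting Rcc1, and no spike-in fixes an absolute scale. The number of transport genes that changed, higher or lower, was 7 to 9 under 20 of 21 alternatives. It was also 7 to 9 when a library was left out. Under those 20 alternatives 2192 to 3674 of all genes were called, out of 5163 to 12873 tested. With glmTreat against a 2-fold null 3 transport genes changed (Rcc1, Ipo5 and Ipo7, all higher), against 721 of all 6775 genes tested. With library totals alone 6 transport genes were higher and 1 (Xpo1) lower, against 1102 higher and 2572 lower of all 6775 genes tested. That setting took the median log2 change of the 10 genes to 0.58, against 0.81 to 1.03 when a library was left out. Ran, Ranbp1, Rcc1, Kpnb1, Ipo5 and Ipo7 kept direction and call in all 19 fits of the log2 change. Tnpo1 lost its call with library totals alone. Kpna2 lost it in 8 of 18 fits: upper quartile factors (edgeR adjusted p = 0.0556), library totals (0.138), DESeq2 (0.155), thinning (0.239), and without activated replicate 3 or 4 or resting replicate 3 or 4 (0.0653 to 0.157). It had no value at a minimum of 10 counts in every library.

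Cse1l passed with the replicate block (edgeR adjusted p = 0.0375), in intersection-nonempty CDS counts (0.0488) and without activated replicate 2. Replicate numbers were not taken as pairs: the correlation over genes between libraries with 1 number, after subtracting each group's mean, was 0.13, 0.07 and 0.23, though every library correlated best with its own number. With that replicate block 9 transport genes and 3455 genes in all were called, and every other transport gene kept its call. Numbers of all genes changed were 721 (544 higher, 177 lower) with glmTreat and 2654 to 3055 without each library. Genes lower in activated cells numbered 2572 with library totals and 827 with DESeq2. A stricter adjusted p of 0.01 left 918. For the 5′ UTR relative to the CDS, 19 genes changed, 3 with 1 scaling for both regions, 5 with the replicate block and 2 to 22 without each library. No transport gene was among them where tested, but Ran, Kpna2 and Tnpo1 were not tested in the 3 fits that left out an activated library. Without each library the log2 change there was 0.39 to 1.40 for Ranbp1, 0.31 to 0.92 for Cse1l and -0.59 to -0.09 for Kpnb1. The log2 change of Kpnb1 there was -0.27, and 0.049 with 1 scaling. The Ranbp1 over Ran ratio turned to 0.06 in exon counts. Kpna2 over Kpnb1 turned to -0.02 without activated replicate 3 and to -0.25 without resting replicate 4, and its range without each library was -0.25 to 0.44. That range was -0.87 to -0.18 for Cse1l over Kpna2 and -0.45 to -0.05 for Ranbp1 over Ran. The older quasi-likelihood fit of edgeR, added after seeing the data, changed no call among the transport genes. The difference in the summed share was 0.0881 to 0.119 percentage points without each library, against 0.106. The causes of these shifts were not tested.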
